A study of Mus musculus with 4 samples.

Results

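Fkbp5, Tsc22d3, Zbtb16, Per1 and Sgk1 are 5 genes that both the glucocorticoid receptor and the androgen receptor are known to induce. They were picked by symbol from the 30905 genes counted in single cells of mouse prostates, and each of the 5 symbols matched 1 row. The RNA of single cells in droplets was sequenced from dissociated prostates of 4 groups of mice, 1 library per group. The groups, with their ages, were Trp53-deleted ADT (5.5 months), Trp53-deleted (3.5 months), Trp53-intact ADT (5.5 months) and Trp53-intact (4 months). In the Trp53-deleted groups the gene was deleted in the prostate (Trp53PC-/-), and the labels do not name the promoter behind this restriction. ADT is not spelled out in the labels and was taken to mean androgen deprivation therapy. With 1 library per group, and with the older mice in the ADT groups, effects of ADT, of age and of the library itself cannot be told apart, the effects of genotype and library cannot be either, and no test between groups was possible. The labels do not say how many animals a library pooled.

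Steroid hormones of the glucocorticoid and androgen classes bind related nuclear receptors, which are held ready by a chaperone complex and, once bound, recognise nearly the same DNA palindrome. A gene with such a site can therefore answer to either hormone, depending on which receptor a cell carries. In the prostate, luminal epithelial cells are the classical androgen target, while stromal and immune cells are known for their response to glucocorticoids. Fkbp5 encodes a co-chaperone that lowers the hormone affinity of the glucocorticoid receptor, Tsc22d3 encodes the anti-inflammatory leucine zipper protein GILZ, Zbtb16 encodes the zinc finger repressor PLZF, Per1 encodes a repressor of the circadian clock and Sgk1 encodes a serum- and glucocorticoid-regulated kinase.

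On GRCm38 with the GENCODE M21 annotation, Fkbp5 lies on the minus strand of chr17:28399094-28517527. Tsc22d3 lies on the minus strand of chrX:140539528-140600659, and Zbtb16 on the minus strand of chr9:48654297-48836222. Per1 lies on the plus strand of chr11:69095217-69109960, and Sgk1 on the plus strand of chr10:21882184-21999903. Only Fkbp5 overlaps other annotated genes (4, of which 2 lie on its strand), and none of the 4 is a row of the matrix.

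RefSeq start-site windows of 300 bases on GRCm38.p6 were matched for 4 of the 5 genes, 12 windows in all (Fkbp5 1, Tsc22d3 3, Per1 2 and Sgk1 6), and Zbtb16 had no entry. The stretches shown carry, in capitals, the letters of the receptor palindrome (AGAACA and TGTTCT with 3 free bases between them), its hexamer TGTTCT alone or the E-box CACGTG, which the clock proteins bind, and they are shown because these are the letters by which steroid and clock inputs to these genes are usually described. All 4 stretches are given 5′ to 3′ on the strand of the gene and lie clear of annotated exons. The Sgk1 stretch is chr10:21993656-21993760 on the plus strand, with its match starting 189 bases upstream of the start site. The Tsc22d3 stretch is chrX:140600660-140600749 on the minus strand, 185 bases upstream. The Fkbp5 stretch is chr17:28486268-28486363 on the minus strand, 169 bases upstream, and the Per1 stretch is chr11:69098738-69098833 on the plus strand, 166 bases upstream.
Sgk1: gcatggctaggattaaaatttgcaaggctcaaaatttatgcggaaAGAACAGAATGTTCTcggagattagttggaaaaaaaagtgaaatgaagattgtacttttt
Tsc22d3: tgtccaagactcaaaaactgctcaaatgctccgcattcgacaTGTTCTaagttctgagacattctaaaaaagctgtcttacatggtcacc
Fkbp5: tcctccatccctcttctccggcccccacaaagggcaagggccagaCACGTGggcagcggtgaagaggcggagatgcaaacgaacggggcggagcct
Per1: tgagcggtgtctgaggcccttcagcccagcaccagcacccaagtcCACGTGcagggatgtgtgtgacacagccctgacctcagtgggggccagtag

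On either strand, the full palindrome was found in 3 of 32851 windows of this length (0.00913%), and 1 of the 3 was the Sgk1 window shown. These 32851 windows, called all windows below, leave out the chromosome of the glucocorticoid receptor gene. A relaxed form (GNACA and TGTNC with 3 free bases between them), which the Sgk1 match also satisfies, was in 0.475% of windows and in no other window of the members. The hexamer, which the palindrome contains on both strands, was in 19.0% of all windows and in 4 of the 12 member windows. The E-box was in 7.15% of all windows and in 3 of the 12. The full cyclic AMP response element TGACGTCA was in 1.79% of windows and in none of the 12, while its first 6 letters, TGACGT, were in 7.51% and in 1 window, of Per1. These are matches of letters and not sites of binding, and windows without a match say nothing of elements farther away.

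The libraries held between 58088678 and 148030357 unique molecular identifiers (UMIs, which count captured RNA molecules), and between 5389 and 8833 cells each were kept, with medians of 4123 to 5660 UMIs per cell. Pairs of libraries shared 12 to 25 cell barcodes. Cells were grouped by clustering and named from marker genes, as "-like" because the names rest on RNA alone. Epithelial-like cells, the sum of the basal-like, luminal progenitor-like and luminal-like clusters, numbered 221 in Trp53-deleted ADT, 514 in Trp53-deleted, 639 in Trp53-intact ADT and 1881 in Trp53-intact. Clusters with epithelial genes among their leading genes also stayed unnamed and out of these numbers. Cluster 6, with Krt8 and Krt18 and a median of 853 UMIs, held 186 cells of Trp53-deleted ADT, 16 of Trp53-deleted, 1191 of Trp53-intact ADT and 65 of Trp53-intact. Cluster 26, with Clu and Elf5, held 135, 2, 56 and 0 cells in the same order. The make-up of the epithelial-like cells was unequal, since 1099 of the 1881 in Trp53-intact were luminal-like, against 4 in Trp53-deleted ADT, 54 in Trp53-deleted and 17 in Trp53-intact ADT. Values for the luminal progenitor-like cells, which numbered 183, 373, 462 and 621 in the same order, are therefore given beside those for all epithelial-like cells. Fibroblast-like cells numbered 780, 1573, 1294 and 1247. Trp53 was counted in epithelial-like cells at 18.7 and 18.8 CPM (UMIs of the gene per 1000000 UMIs of the class) in Trp53-deleted ADT and Trp53-deleted, against 93.1 and 59.3 CPM in Trp53-intact ADT and Trp53-intact. In fibroblast-like cells it was at 45.6, 46.1, 69.2 and 44.3 CPM in the same order. The labels do not say which cells of the prostate the deletion reached. The labels do not say which exons were deleted, so a 3' count may lie outside them.

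Levels are CPM of the UMIs summed over all cells of a class in a library, and intervals are exact at the 95% level and cover counting error only. A gene was called higher or lower by size alone when the ratio of CPM + 5 was at least 1.5-fold either way and the 2 libraries together held at least 20 UMIs. Such a call has no replicate behind it. Beside each count of members called stands the share of all measured genes called in that direction.

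In epithelial-like cells, the FK506-binding co-chaperone gene Fkbp5 and the zinc finger gene Zbtb16 were far lower with ADT in both genotypes, while Sgk1 and Per1 stayed within 1.5-fold. Fkbp5 stood at 9.13 CPM (44 UMIs) in Trp53-deleted ADT and 91.6 CPM (1371 UMIs) in Trp53-deleted. In Trp53-intact mice it stood at 7.50 CPM (107 UMIs) with ADT and 51.7 CPM (1402 UMIs) without. Both ADT libraries thus lay below both libraries without ADT, with ratios of 0.0997 (0.0721 to 0.135) in Trp53-deleted mice and 0.145 (0.118 to 0.177) in Trp53-intact mice. How many measured genes had this order of libraries was not counted. Zbtb16 stood at 0.415 CPM (2 UMIs) in Trp53-deleted ADT and 33.1 CPM (496 UMIs) in Trp53-deleted. It stood at 0.771 CPM (11 UMIs) in Trp53-intact ADT and 18.4 CPM (499 UMIs) in Trp53-intact. The gene was therefore close to the counting floor in both ADT libraries, with ratios of 0.0125 (0.00151 to 0.0455) and 0.0419 (0.0208 to 0.0757).

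The other 3 members did not move as a block with these. Tsc22d3 was at 27.2 CPM in Trp53-deleted ADT, 26.4 in Trp53-deleted, 18.7 in Trp53-intact ADT and 32.9 in Trp53-intact. Its ratio with ADT was 1.03 (0.837 to 1.25) in Trp53-deleted mice and 0.567 (0.492 to 0.650) in Trp53-intact mice, where it was called lower. Per1 was at 18.0, 21.6, 31.7 and 24.2 CPM in the same order of libraries, so it was within 1.5-fold in both genotypes, at 0.834 (0.650 to 1.06) and 1.31 (1.16 to 1.48). Sgk1 was at 276, 370, 273 and 278 CPM, with ratios of 0.746 (0.702 to 0.792) and 0.983 (0.945 to 1.02). Of the 5 members, 2 were lower and 0 higher with ADT in Trp53-deleted mice, where 7.07% of measured genes were lower and 5.48% higher. In Trp53-intact mice, 3 were lower and 0 higher, against 5.22% and 5.53% of measured genes. The call of Tsc22d3 there was lost with a pseudocount of 10 CPM, with doublets kept, in luminal progenitor-like cells alone, with the neutrophil-like level taken off and with clusters 6 and 26 counted in. With clusters 6 and 26 counted in, a setting chosen after seeing the data, Fkbp5 and Zbtb16 stayed lower with ADT, at log2 ratios of -2.60 and -2.16 in Trp53-deleted mice and -2.12 and -1.90 in Trp53-intact mice, and Sgk1 in Trp53-deleted mice was then called lower, at -0.64.

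**Figure D1:**
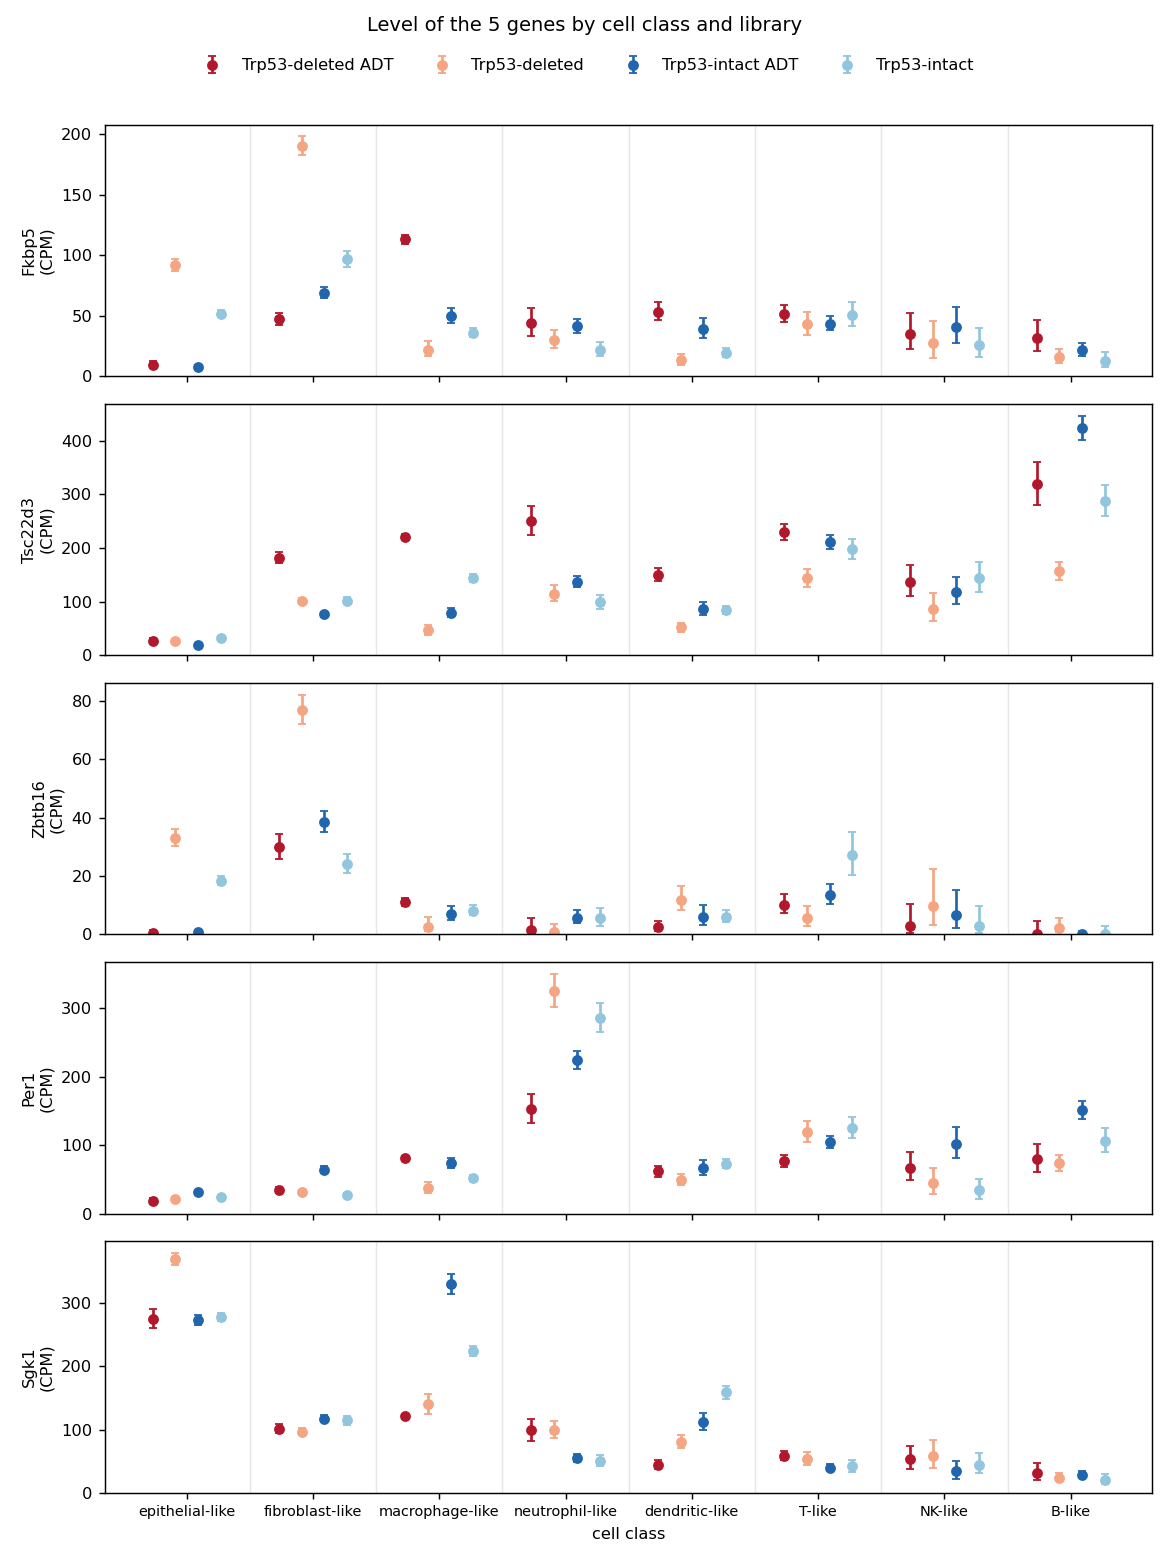
Levels of the 5 genes in CPM, on a linear axis, in epithelial-like cells, fibroblast-like cells and the 6 immune classes. Each gene has 1 panel and each library 1 colour, and bars are exact 95% Poisson intervals. In epithelial-like cells the Fkbp5 and Zbtb16 points of both ADT libraries lie below those of both libraries without ADT. The Sgk1 points there lie between 273 and 370 CPM.

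Among luminal progenitor-like cells alone, which take the luminal-like cells out of the comparison, Fkbp5 and Zbtb16 differed by much the same factors. Fkbp5 was at 8.73 CPM in Trp53-deleted ADT, 85.8 in Trp53-deleted, 6.96 in Trp53-intact ADT and 48.7 in Trp53-intact, with ratios of 0.102 (0.0720 to 0.140) and 0.143 (0.112 to 0.18). Zbtb16 was at 0.448, 32.0, 0.440 and 18.9 CPM, with ratios of 0.0140 (0.00169 to 0.0508) and 0.0234 (0.00754 to 0.0550). Here 2 members were lower in each genotype, against 7.11% of measured genes in Trp53-deleted mice and 5.31% in Trp53-intact mice. Tsc22d3 was within 1.5-fold in both once the pseudocount was added, at 24 and 22.2 CPM in Trp53-deleted ADT and Trp53-deleted, and at 16.7 and 25.9 CPM in Trp53-intact ADT and Trp53-intact. Basal-like cells reached 50 in both libraries of Trp53-intact mice only. There Fkbp5 was at 9.33 CPM with ADT and 65.7 CPM without, Zbtb16 at 2.07 and 20.6 CPM, and Tsc22d3 at 25.9 and 66.6 CPM, so 3 members were lower, against 5.3% of measured genes. Sgk1 stood at 233 CPM with ADT and 155 CPM without in the basal-like cells, within 1.5-fold on the scale with the pseudocount.

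Markers of other cell types were counted in the same sums. All 8 fibroblast markers were detected in epithelial-like cells, and their summed level was 631 CPM in Trp53-deleted ADT, 705 in Trp53-deleted, 521 in Trp53-intact ADT and 784 in Trp53-intact. All 8 macrophage markers were detected as well, at a summed 707, 391, 625 and 1653 CPM. Neutrophil markers, of which 6 or 7 of 7 were detected, summed to 113, 29.9, 80.1 and 35.9 CPM. The fibroblast sum was thus lower, and the neutrophil sum higher, in both ADT libraries than in both others, the macrophage sum was not ordered by ADT, and the part of these markers in the results was not tested. In luminal progenitor-like cells the neutrophil sum was 90.7, 29.1, 68.5 and 24.6 CPM in the same order, again higher in both ADT libraries, while the fibroblast sum was 450.4, 446.5, 276.8 and 383.1 CPM. Col1a1, a collagen gene, stood apart at 82.6 CPM in epithelial-like cells of Trp53-deleted ADT, against 4.34 in Trp53-deleted, 2.80 in Trp53-intact ADT and 13.3 in Trp53-intact.

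The share of epithelial-like cells with at least 1 UMI of a gene shows whether the lower sums came with fewer cells carrying it. Depths differed widely, with medians of 13457 UMIs per epithelial-like cell in Trp53-deleted ADT, 20387 in Trp53-deleted, 8672 in Trp53-intact ADT and 1960 in Trp53-intact, so each cell was thinned to 1000 UMIs and 7, 31, 42 and 587 shallower cells were left out. Fkbp5 was then seen in 3 of 214 cells (1.40%, 0.290 to 4.04) in Trp53-deleted ADT and in 44 of 483 (9.11%, 6.70 to 12) in Trp53-deleted. In Trp53-intact mice it was seen in 8 of 597 cells (1.34%) with ADT and 68 of 1294 (5.25%) without. In both genotypes the intervals of the ADT library and of the library without ADT did not overlap. No class is known to lack Fkbp5, and B-like cells had it in 1.05%, 0.677%, 2.18% and 1.92% of thinned cells in Trp53-deleted ADT, Trp53-deleted, Trp53-intact ADT and Trp53-intact. Without thinning the shares were 14.0%, 60.5%, 13% and 28.0% in the order Trp53-deleted ADT, Trp53-deleted, Trp53-intact ADT and Trp53-intact.

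Zbtb16 was seen in 0 of 214 thinned epithelial-like cells in Trp53-deleted ADT, which allows a share of up to 1.40%, and in 18 of 483 (3.73%) in Trp53-deleted. It was seen in 1 of 597 cells (0.168%) in Trp53-intact ADT and 23 of 1294 (1.78%) in Trp53-intact. Unthinned, the shares were 0.905%, 40.9%, 1.25% and 14.0% in the same order. B-like cells, which should lack this gene, had it in 0 of 190, 2 of 443 (0.451%), 0 of 688 and 0 of 208 thinned cells, with median depths of 3851, 4028, 4284 and 5545 UMIs. The shares in the epithelial-like cells of both ADT libraries were therefore no higher than this background could give.

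**Figure D2:**
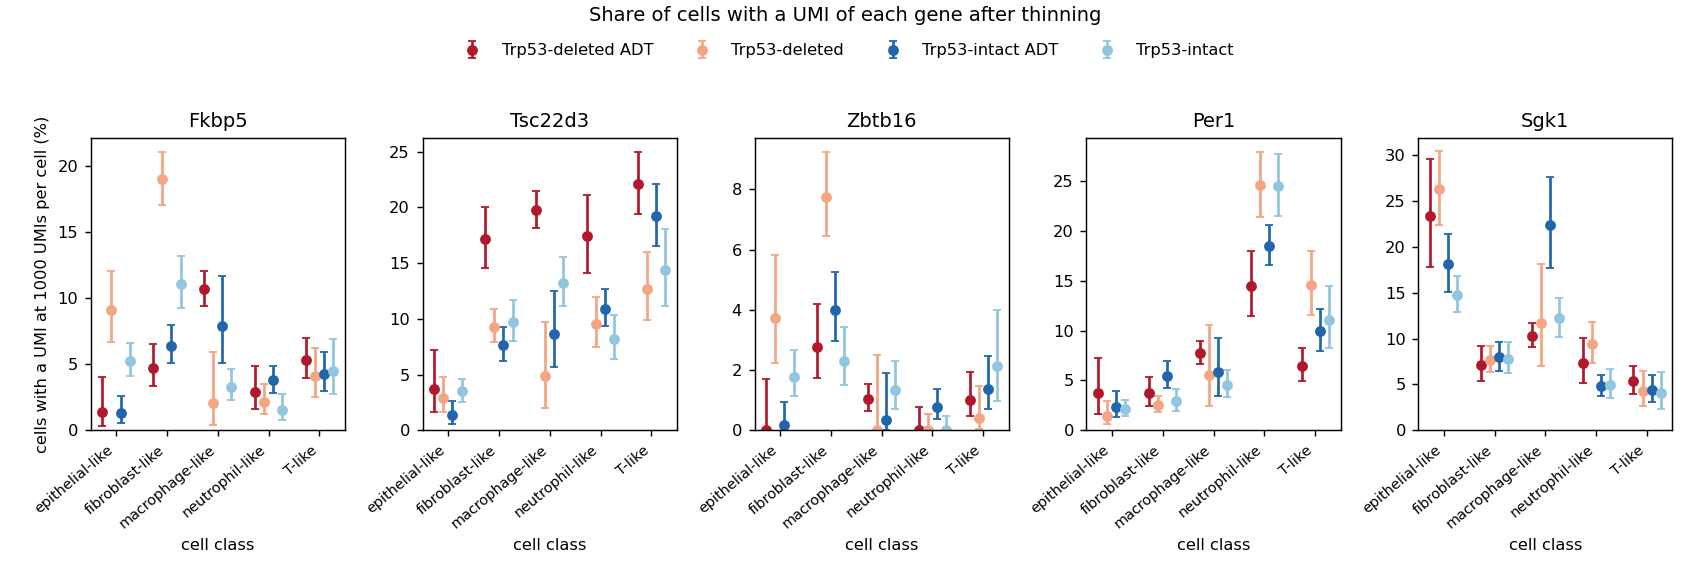
Percent of cells with at least 1 UMI of the gene after thinning each cell to 1000 UMIs, by class, with 1 colour per library and exact 95% Clopper-Pearson intervals as bars. Fkbp5 in epithelial-like cells was at 1.40% and 1.34% in the ADT libraries, against 9.11% and 5.25% without ADT.

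In fibroblast-like cells the members behaved differently in the 2 genotypes. Fkbp5 stood at 46.9 CPM (324 UMIs) in Trp53-deleted ADT and 190 CPM (2352 UMIs) in Trp53-deleted, and at 68.9 CPM (865 UMIs) in Trp53-intact ADT and 96.5 CPM (868 UMIs) in Trp53-intact. Both ADT libraries again lay below both others, with ratios of 0.246 (0.219 to 0.277) and 0.715 (0.650 to 0.786), and only the first was past 1.5-fold. The share of measured genes with this order was not counted here either. Zbtb16 was at 29.95 CPM in Trp53-deleted ADT, 77.0 in Trp53-deleted, 38.6 in Trp53-intact ADT and 24.1 in Trp53-intact, so it was lower with ADT in Trp53-deleted mice, at 0.389 (0.333 to 0.452), and 1.60 times as high (1.36 to 1.89) in Trp53-intact mice. The value of 1.60 was within 1.5-fold once the pseudocount was added. Tsc22d3 was at 182, 101, 76.0 and 102 CPM in the same order, higher with ADT in Trp53-deleted mice at 1.81 (1.67 to 1.95) and within 1.5-fold in Trp53-intact mice at 0.746 (0.681 to 0.818). The log2 ratio of Tsc22d3 in Trp53-deleted mice, 0.82, was -0.83 when an unnamed mesenchymal cluster led by Crabp1 and Postn, found almost wholly in Trp53-deleted ADT, was counted as fibroblast-like.

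Per1 differed in size between genotypes, at 33.7 CPM in Trp53-deleted ADT, 30.9 in Trp53-deleted, 64.2 in Trp53-intact ADT and 26.5 in Trp53-intact. It was called higher with ADT in Trp53-intact mice alone, at 2.43 (2.1 to 2.82), against 1.09 (0.923 to 1.29) in Trp53-deleted mice. Sgk1 was at 101, 96.7, 117 and 115 CPM, and the 4 libraries lay close together. In Trp53-deleted mice 2 members were lower and 1 higher with ADT, against 10.4% and 8.71% of measured genes. In Trp53-intact mice 0 were lower and 1 higher, against 6.31% and 6.99%. Luminal progenitor markers, all 10 of which were detected in fibroblast-like cells, summed to 177, 235, 348 and 423 CPM, and macrophage markers to 3169, 2333, 3352 and 2373 CPM, and the part of either in these results was not tested.

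Fibroblast-like cells came from 4 main clusters that the libraries filled unequally. Cluster 24, led by Sult1e1 and C3, held 1103 cells of Trp53-deleted, while cluster 8, led by Mmp3 and Igfbp3, held 842 cells of Trp53-intact ADT. Cluster 15, led by Mfap4 and Cxcl14, reached 50 cells in all 4 libraries and gave the comparison within 1 cluster. There Fkbp5 was at 50.8 CPM in Trp53-deleted ADT, 203 in Trp53-deleted, 40.5 in Trp53-intact ADT and 91.2 in Trp53-intact. The ratios of Fkbp5 within that cluster were 0.25 (0.199 to 0.314) and 0.444 (0.341 to 0.572), so in Trp53-intact mice the difference was larger there than over all fibroblast-like cells. Zbtb16 in cluster 15 was at 13.9, 39.5, 3.29 and 9.77 CPM, with ratios of 0.351 and 0.336, so in Trp53-intact mice its direction was opposite to that of the summed class. Over all clusters of at least 50 cells, Fkbp5 lay between 32.6 and 78.2 CPM in the ADT libraries and between 91.2 and 210 CPM in the others. How many measured genes part the clusters in this way was not counted. Clusters of 1 library are not replicates of each other.

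**Figure D3:**
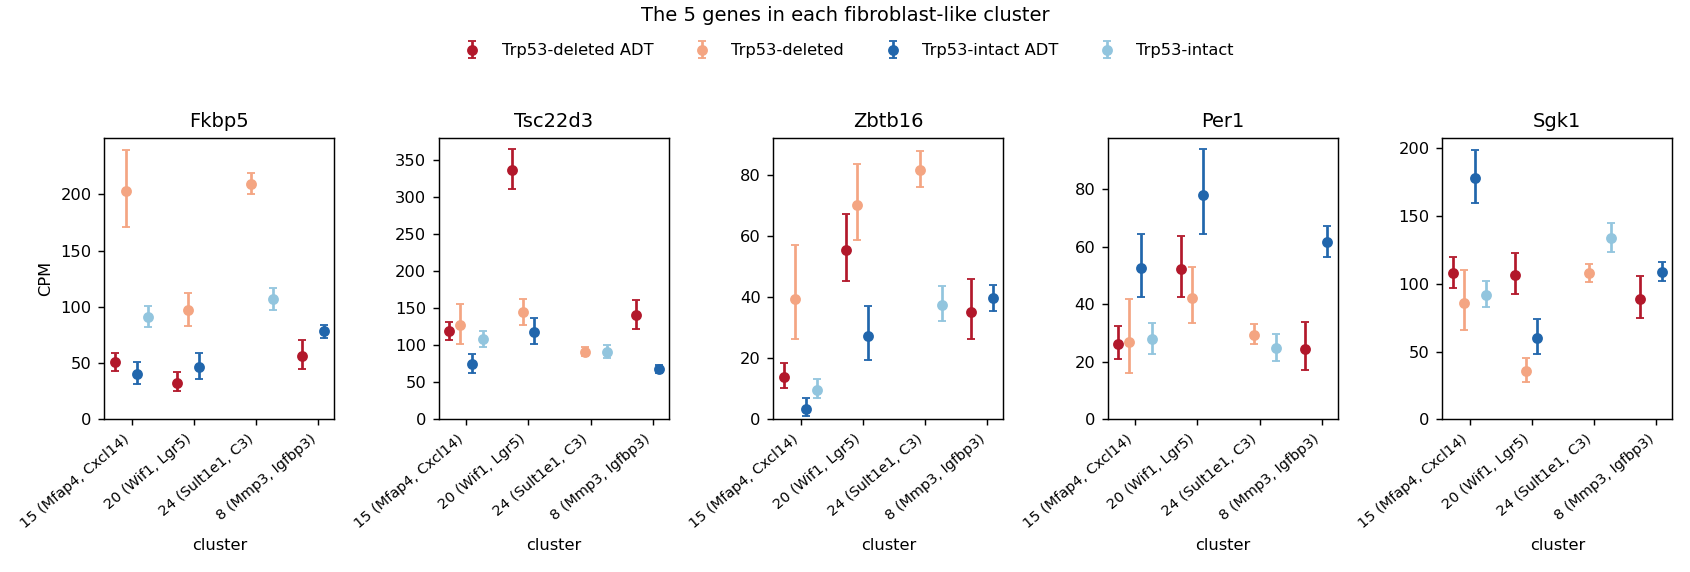
Levels of the 5 genes in CPM in each fibroblast-like cluster with at least 50 cells in a library, with 1 colour per library and exact 95% Poisson intervals as bars. For Fkbp5 the ADT points lie at 32.6 to 78.2 CPM and the points without ADT at 91.2 to 210 CPM.

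Epithelial-like cells were then set beside fibroblast-like cells of the same libraries, as a ratio of ADT ratios. The ADT ratio of Fkbp5 in epithelial-like cells was 0.405 (0.286 to 0.560) of that in fibroblast-like cells in Trp53-deleted mice and 0.203 (0.162 to 0.253) of it in Trp53-intact mice. For Zbtb16 the same ratio of ratios was 0.0322 (0.00386 to 0.119) and 0.0262 (0.0128 to 0.0488). The ADT ratios of both genes were thus lower in epithelial-like than in fibroblast-like cells in each genotype, as far as counting error goes. In Trp53-intact mice the fibroblast-like ratio of Zbtb16, 1.60, was within 1.5-fold once the pseudocount was added. Within fibroblast-like cluster 15 of these mice the ADT ratios were 0.336 for Zbtb16 and 0.444 for Fkbp5. The part of the unequal clusters in the ratios of ratios was not tested. For Tsc22d3 the ratios of ratios were 0.569 (0.456 to 0.706) and 0.759 (0.642 to 0.898). Per1 gave 0.764 (0.566 to 1.03) and 0.540 (0.445 to 0.654), and Sgk1 gave 0.712 (0.636 to 0.797) and 0.960 (0.878 to 1.05).

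Read within each library, Fkbp5 in epithelial-like cells stood at 0.195 of the fibroblast-like level in Trp53-deleted ADT, 0.481 in Trp53-deleted, 0.109 in Trp53-intact ADT and 0.536 in Trp53-intact. For Zbtb16 these fractions were 0.0139, 0.430, 0.0200 and 0.763. Sgk1, by contrast, was 2.72, 3.82, 2.33 and 2.43 times as high in epithelial-like as in fibroblast-like cells, above 1 in all 4 libraries.

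**Figure D4:**
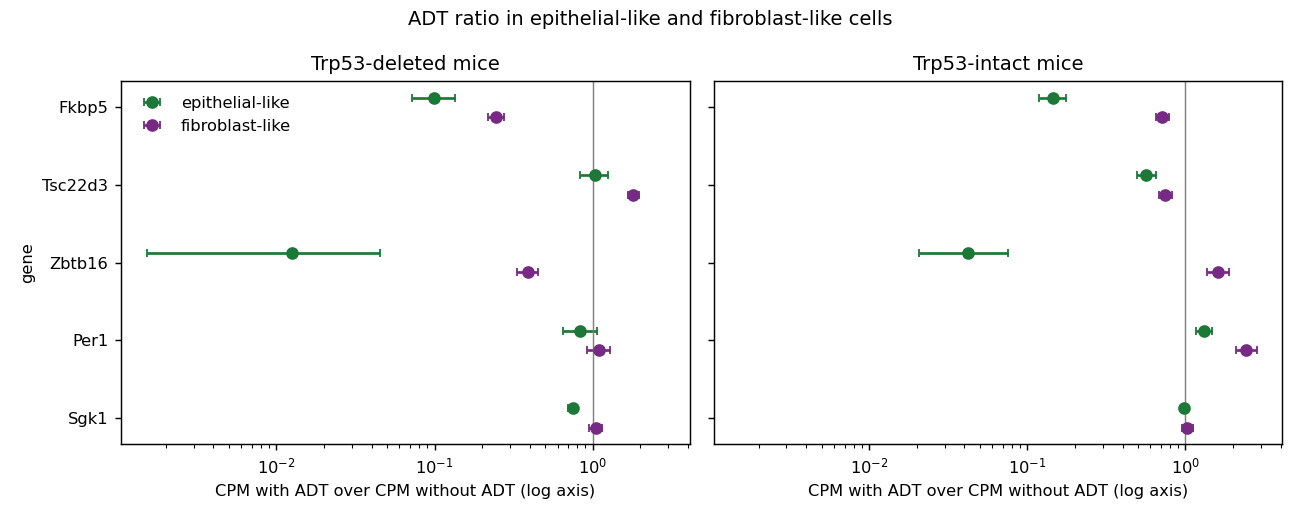
The ratio of CPM with ADT over CPM without ADT, on a log axis, for each gene. Epithelial-like and fibroblast-like cells of Trp53-deleted and Trp53-intact mice are shown, with no pseudocount added. Bars are conditional binomial intervals. With the pseudocount of 5 CPM added, the log2 ratios of Fkbp5 were -2.77 and -2.18 in epithelial-like cells. In fibroblast-like cells they were -1.91 and -0.46.

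In some immune classes Fkbp5 was higher with ADT, unlike in the epithelium, and the largest ratios were in Trp53-deleted mice. Macrophage-like cells carried Fkbp5 at 113 CPM in Trp53-deleted ADT and 21.9 CPM in Trp53-deleted, a ratio of 5.16 (3.90 to 6.99), and at 49.5 CPM in Trp53-intact ADT and 35.9 CPM in Trp53-intact, a ratio of 1.38 (1.18 to 1.61). The order of epithelial-like and macrophage-like cells therefore differed with ADT, with Fkbp5 in the epithelial-like cells at 0.0808 of the macrophage-like level in Trp53-deleted ADT and 4.19 times that level in Trp53-deleted. In Trp53-intact mice it was at 0.151 of the macrophage-like level with ADT and 1.44 times that level without. The macrophage-like cells leave out an unnamed cluster led by Folr2 and Cd163, with 380 cells of Trp53-deleted and 475 of Trp53-intact. Fkbp5 in that cluster was at 29.5 CPM in Trp53-deleted, below the epithelial-like 91.6 CPM. In Trp53-intact it was at 92.4 CPM, above the epithelial-like 51.7 CPM, so the order without ADT there held for the named cells only. Dendritic-like cells carried Fkbp5 at 53.1, 13.3, 39.1 and 19.4 CPM in Trp53-deleted ADT, Trp53-deleted, Trp53-intact ADT and Trp53-intact, with ratios of 4.00 (2.82 to 5.81) and 2.01 (1.51 to 2.67). In T-like cells it was at 51.2, 42.7, 43.3 and 50.3 CPM, within 1.5-fold in both genotypes and slightly lower with ADT in Trp53-intact mice.

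Tsc22d3, a mediator of glucocorticoid action in leukocytes, was higher with ADT in each of the 6 immune classes of Trp53-deleted mice, with log2 ratios of 0.63 in NK-like cells to 2.12 in macrophage-like cells. Of all measured genes, 5.42% were higher in macrophage-like, 16.4% in neutrophil-like, 6.32% in dendritic-like, 9.13% in T-like, 8.79% in NK-like and 9.68% in B-like cells. In macrophage-like cells it was at 221 CPM in Trp53-deleted ADT and 46.9 CPM in Trp53-deleted, and at 79.6 CPM in Trp53-intact ADT and 144 CPM in Trp53-intact. It was thus higher with ADT in one genotype at 4.71 (3.88 to 5.77) and lower in the other at 0.552 (0.494 to 0.615), where 3.81% of measured genes were lower. The libraries filled the macrophage-like clusters unequally: cluster 22, led by Ms4a4c and Ms4a6c, held 2050 cells of Trp53-deleted ADT, 92 of Trp53-deleted, 172 of Trp53-intact ADT and 49 of Trp53-intact, while cluster 17, led by Ms4a7 and C1qc, held 67 cells of Trp53-intact ADT and 840 of Trp53-intact. Within cluster 22, Tsc22d3 was at 226 CPM in Trp53-deleted ADT and 63.4 CPM in Trp53-deleted, a ratio of 3.56 (2.80 to 4.59). Within cluster 17 it was at 60.9 CPM in Trp53-intact ADT and 158 CPM in Trp53-intact, a ratio of 0.385 (0.303 to 0.484). In T-like cells Tsc22d3 was at 230, 143, 211 and 198 CPM in the order used before, and in B-like cells at 319, 157, 424 and 287 CPM. The ratios in T-like cells were 1.61 (1.40 to 1.84) and 1.07 (0.949 to 1.20), and those in B-like cells 2.04 (1.72 to 2.40) and 1.48 (1.32 to 1.66).

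As a mean of the 6 immune classes with equal weight, Fkbp5 was at 54.6 CPM in Trp53-deleted ADT against 25.1 CPM in Trp53-deleted (2.17 times), and at 39.2 CPM in Trp53-intact ADT against 27.6 CPM in Trp53-intact (1.42 times). Tsc22d3 was at 218 CPM against 100 CPM (2.18 times) in Trp53-deleted mice with and without ADT, and at 176 CPM against 159 CPM (1.11 times) in Trp53-intact mice. By class, Fkbp5 was called higher with ADT in macrophage-like, dendritic-like and B-like cells of Trp53-deleted mice. In Trp53-intact mice it was called higher in neutrophil-like and dendritic-like cells, where 15.3% and 5.72% of measured genes were.

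Zbtb16, Per1 and Sgk1 gave no common direction in the immune classes. In macrophage-like cells of Trp53-deleted mice 4 of the 5 members were higher, against 5.42% of measured genes, with Zbtb16 at 11 CPM with ADT against 2.68 CPM without and Per1 at 80.7 CPM against 37.5 CPM, while Sgk1 was within 1.5-fold at 121 CPM against 140 CPM. Sgk1 in macrophage-like cells of Trp53-intact mice was at 330 CPM with ADT and 224 CPM without, within 1.5-fold. In neutrophil-like cells, where it had its highest level in all 4 libraries, Per1 was at 152 CPM in Trp53-deleted ADT, 325 in Trp53-deleted, 224 in Trp53-intact ADT and 286 in Trp53-intact, lower with ADT at 0.468 (0.398 to 0.548) in Trp53-deleted mice, where 14.0% of measured genes were lower. In T-like cells of Trp53-deleted mice Per1 was also lower, at 76.7 CPM with ADT against 119 CPM without, with 17.4% of measured genes lower. Zbtb16, which marks natural killer T cells among lymphocytes, was lower in T-like cells of Trp53-intact mice, at 13.5 CPM with ADT and 27.1 CPM without, where 9.65% of measured genes were lower. Of those T-like cells, 156 of 800 with ADT and 147 of 431 without were in cluster 21, led by Trdc and Icos, and within it Zbtb16 was at 69.9 CPM with ADT and 71.9 CPM without, a ratio whose interval was 0.661 to 1.43.

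**Figure D5:**
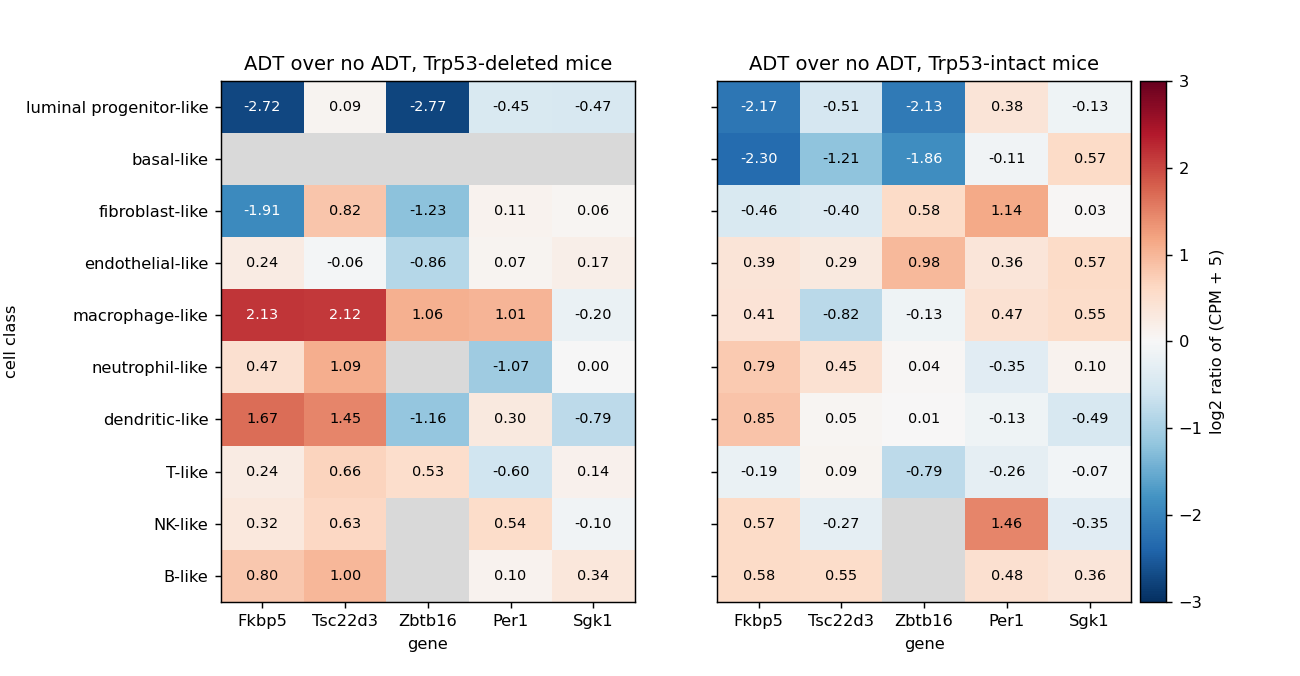
Log2 ratio of CPM + 5 with ADT against without for the 5 genes (columns) in each class (rows), in Trp53-deleted and Trp53-intact mice; grey fields had fewer than 20 UMIs over both libraries or fewer than 50 cells in a library. Fkbp5 ran from -2.72 in luminal progenitor-like to 2.13 in macrophage-like cells of Trp53-deleted mice.

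The macrophage-like cells compared were few in some libraries, with 2248 in Trp53-deleted ADT, 145 in Trp53-deleted, 296 in Trp53-intact ADT and 978 in Trp53-intact. Fibroblast markers, all 8 detected, summed to 578, 422, 234 and 307 CPM in them, and luminal progenitor markers, all 10 detected, to 124, 167, 278 and 431 CPM. In B-like cells fibroblast markers summed to 1063, 636.8, 310.7 and 329.8 CPM, and macrophage markers to 1627, 730.2, 549.3 and 827.1 CPM. Fibroblast markers in neutrophil-like cells summed to 1971, 1620, 813 and 979 CPM. The fibroblast sums were highest in Trp53-deleted ADT in each of these classes, and their part in the results was not tested.

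Between genotypes without ADT, Fkbp5 and Zbtb16 were higher in Trp53-deleted mice in both epithelial-like and fibroblast-like cells. In epithelial-like cells Fkbp5 was at 91.6 CPM in Trp53-deleted against 51.7 CPM in Trp53-intact, a ratio of 1.77 (1.64 to 1.91), and Zbtb16 gave 1.8 (1.59 to 2.04), so 2 members were higher and 0 lower, against 3.25% and 2.91% of measured genes. In fibroblast-like cells the ratios were 1.97 (1.82 to 2.13) for Fkbp5 and 3.19 (2.75 to 3.72) for Zbtb16, again 2 higher and 0 lower, against 10.3% and 5.82%. In macrophage-like cells 4 members were lower in Trp53-deleted than in Trp53-intact, against 5.49% of measured genes, with Tsc22d3 at 46.9 CPM against 144 CPM. With ADT, Fkbp5 in epithelial-like cells was at 9.13 CPM in Trp53-deleted ADT and 7.50 CPM in Trp53-intact ADT, a ratio of 1.22 (0.836 to 1.74). Per1 was lower in Trp53-deleted ADT than in Trp53-intact ADT in epithelial-like cells at 0.569 (0.447 to 0.718), where 3.26% of measured genes were lower, and in fibroblast-like cells at 0.525 (0.452 to 0.608), where 6.69% were. These genotype comparisons share libraries with the ADT comparisons.

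Across the classes of a library, the order of Fkbp5 levels differed with ADT. In Trp53-deleted, Fkbp5 was highest in fibroblast-like cells at 190 CPM (183 to 198), then basal-like at 140 (122 to 161) and luminal-like at 121 (60.5 to 217). The luminal-like interval, from 11 UMIs, overlapped those of both fibroblast-like and basal-like cells. Dendritic-like cells were lowest, at 13.3 CPM. In Trp53-deleted ADT it was highest in macrophage-like cells at 113 CPM (109 to 117) and lowest in luminal progenitor-like cells at 8.73 CPM (6.21 to 11.9). In Trp53-intact it was highest in lymphatic endothelial-like cells at 114 CPM (85.7 to 148), endothelial-like cells at 100 (84.8 to 117) and fibroblast-like cells at 96.5 (90.2 to 103), which did not differ beyond counting error. In Trp53-intact ADT it was highest in endothelial-like cells at 133 CPM (113 to 156) and lowest in luminal progenitor-like cells at 6.96 CPM (5.51 to 8.67), next to basal-like cells at 9.33 (6.15 to 13.6). The epithelial classes thus stood at the low end of Fkbp5 in both ADT libraries and in neither of the others.

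Zbtb16 in luminal progenitor-like cells was at rank 10 of 12 classes in Trp53-deleted ADT, 4 of 12 in Trp53-deleted, 11 of 12 in Trp53-intact ADT and 8 of 16 in Trp53-intact. Sgk1 was highest in luminal progenitor-like cells in 3 libraries, and in Trp53-intact ADT in endothelial-like cells, at 367 CPM. Its highest interval overlapped that of the next class in each library but Trp53-intact. Tsc22d3 was highest in B-like cells in 3 libraries, and in Trp53-deleted in endothelial-like cells, at 165 CPM (139 to 194). The last interval overlapped that of B-like cells, at 157 CPM (140 to 174). Zbtb16 was highest in fibroblast-like cells in both Trp53-deleted libraries, in endothelial-like cells in Trp53-intact ADT at 84.9 CPM and in smooth muscle-like cells in Trp53-intact at 46.6 CPM. Its highest interval overlapped others in both Trp53-intact libraries, and that of smooth muscle-like cells in Trp53-deleted ADT.

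The receptors and enzymes that set a cell's answer to corticosteroids differed between the cell types. Nr3c1, the glucocorticoid receptor gene, was at 30.5 CPM in epithelial-like cells of Trp53-deleted ADT, 25.2 in Trp53-deleted, 30.9 in Trp53-intact ADT and 21 in Trp53-intact. In fibroblast-like cells Nr3c1 was at 89.3, 122, 72.8 and 71.4 CPM, and in T-like cells at 264, 262, 181 and 237 CPM, above the epithelial-like level in each library. Hsd11b2, whose enzyme inactivates glucocorticoids, was at 42.5 CPM in Trp53-deleted ADT, 107 in Trp53-deleted, 17.9 in Trp53-intact ADT and 50.9 in Trp53-intact in epithelial-like cells, lower with ADT in both genotypes by log2 ratios of -1.24 and -1.29. Hsd11b1, whose enzyme regenerates active glucocorticoid, was at most 1.11 CPM in epithelial-like cells, and at 201, 138, 121 and 96.5 CPM in fibroblast-like cells of the same libraries. Nr3c2, the mineralocorticoid receptor gene, was at 18.5, 17.8, 13.6 and 15.3 CPM in epithelial-like cells, and at 2.75, 6.31, 3.83 and 1.56 CPM in fibroblast-like cells. H6pd, whose enzyme supplies Hsd11b1 with its cofactor, was at 35.5, 41.5, 29.2 and 39.5 CPM in epithelial-like cells, and at 76.7, 87.7, 106 and 63.2 CPM in fibroblast-like cells.

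Other genes known to answer to glucocorticoids did not follow Fkbp5 and Zbtb16 in the epithelium as a group. Of 28 measured of 30 listed, 7 were higher and 5 lower with ADT in epithelial-like cells of Trp53-deleted mice, with a median log2 ratio of -0.06 beside -0.08 over all measured genes. In Trp53-intact mice 2 were higher and 4 lower, with a median of 0.03 beside 0.04. Over all measured genes, 5.48% were higher and 7.07% lower in epithelial-like cells of Trp53-deleted mice. In Trp53-intact mice 5.53% were higher and 5.22% lower, and these shares hold for each list below. Rgs2, a regulator of G protein signalling, was lower in both, at 34.4 CPM with ADT against 173 without in Trp53-deleted mice, and at 20.6 against 129 CPM in Trp53-intact mice. Rasd1, a dexamethasone-induced Ras protein gene, was lower as well, at 22.8 against 115 CPM and at 63.3 against 162 CPM. Among the highest with ADT was Cebpb, a transcription factor gene, at 194 against 105 CPM in Trp53-deleted mice and 212 against 134 CPM in Trp53-intact mice.

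Of the same list in fibroblast-like cells, Trp53-deleted mice had 1 of 29 higher and 12 lower with ADT, with a median of -0.49 beside -0.06 over all genes. Trp53-intact mice had 7 of 27 higher and 2 lower, with a median of 0.08 beside 0.06. Over all measured genes, 8.71% were higher and 10.4% lower in fibroblast-like cells of Trp53-deleted mice. In Trp53-intact mice 6.99% were higher and 6.31% lower, and these shares hold for the lists below as well. Errfi1, a feedback inhibitor of the EGF receptor, was lower in both, at 134 CPM with ADT against 528 without in Trp53-deleted mice and at 325 against 497 CPM in Trp53-intact mice. Ampd3, an AMP deaminase gene, was lower too, at 7.52 against 54.8 CPM and at 18.5 against 32.9 CPM. The metallothionein gene Mt2 was at log2 ratios of -1.55 in Trp53-deleted mice and 1.29 in Trp53-intact mice, opposite in sign. Rasd1, low with ADT in epithelial-like cells, was higher with ADT in fibroblast-like cells, at 33.1 against 6.96 CPM in Trp53-deleted mice and 25.9 against 12.8 CPM in Trp53-intact mice. In macrophage-like cells 7 of 25 list genes were higher and 3 lower in Trp53-deleted mice, and 3 were higher and 4 lower in Trp53-intact mice. T-like cells had 3 of 22 higher and 4 lower in Trp53-deleted mice, and 1 higher and 9 lower in Trp53-intact mice. Of all measured genes in macrophage-like cells, 5.42% were higher in Trp53-deleted mice and 3.81% lower in Trp53-intact mice. Among those in T-like cells, 9.13% were higher and 17.4% lower in Trp53-deleted mice, and 9.65% were lower in Trp53-intact mice. No such share is given for macrophage-like cells lower in Trp53-deleted or higher in Trp53-intact mice, or for T-like cells higher in Trp53-intact mice. The list counts in those directions therefore have no baseline.

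Androgen-response genes other than the members were lower with ADT more often than higher in epithelial-like cells. Of 49 measured, Trp53-deleted mice had 7 higher and 17 lower, with a median log2 ratio of -0.36 beside -0.08 over all genes. Trp53-intact mice had 4 higher and 22 lower, with a median of -0.41 beside 0.04. Defb50, a beta-defensin gene, had 1 UMI with ADT against 9297 without in Trp53-deleted mice, and 1 against 141562 in Trp53-intact mice. The list holds markers by which luminal-like cells were named, among them Pbsn, Msmb, Tgm4 and Defb50. Luminal-like cells numbered 4 with ADT and 54 without in Trp53-deleted mice, and 17 and 1099 in Trp53-intact mice. These counts thus mix gene levels with the make-up of the class, and the part of the make-up was not tested. Ndrg1, also on that list, was higher with ADT, at 129 against 35.7 CPM in Trp53-deleted mice and 80.6 against 44.2 CPM in Trp53-intact mice. In fibroblast-like cells 5 of 44 were higher and 15 lower in Trp53-deleted mice, and 2 of 47 were higher and 13 lower in Trp53-intact mice. Of all measured genes there, 8.71% were higher and 10.4% lower in Trp53-deleted mice, and 6.99% and 6.31% in Trp53-intact mice.

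The chaperones that hold these receptors, of which Fkbp5 is a partner, were not lower with ADT. Of 8 genes, 2 were higher and 0 lower in epithelial-like cells of Trp53-deleted mice (Hsp90aa1 at log2 0.67 and Hsp90ab1 at log2 0.66), and none was called in Trp53-intact mice. In fibroblast-like cells 4 were higher and 0 lower in each genotype, Fkbp4 in both, at 82.9 CPM with ADT against 46.1 CPM without in Trp53-deleted mice and 129 against 73.6 CPM in Trp53-intact mice. Of 18 circadian clock genes other than Per1, none was called in epithelial-like cells of Trp53-deleted mice, and in Trp53-intact mice Per2, Cry2 and Bhlhe41 were higher, Per2 at 21 against 7.85 CPM. In fibroblast-like cells 2 of 17 were higher and 5 lower in Trp53-deleted mice, and 2 were higher and 1 lower in Trp53-intact mice, where Per2 was at 30.2 CPM with ADT against 6.89 CPM without. Of 10 measured relatives of the members in their gene families, 0 were called in epithelial-like cells of Trp53-deleted mice and 1, Per2, in Trp53-intact mice. Of 9 measured in fibroblast-like cells, 1 was higher and 3 lower in Trp53-deleted mice, and 2 were higher and 1 lower in Trp53-intact mice.

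Per1 and Sgk1 are also immediate early genes, which dissociation of a tissue can induce, so 20 genes of that response were counted beside them. In epithelial-like cells 14 were higher and 0 lower with ADT in Trp53-deleted mice, and 10 were higher and 2 lower in Trp53-intact mice, with Fos at log2 ratios of 1.32 and 1.52. The 2 lower ones were the heat shock genes Hspa1a and Hspa1b, at log2 ratios of -3.22 and -2.65. In fibroblast-like cells 7 were higher and 2 lower in Trp53-deleted mice, and 9 were higher and 4 lower in Trp53-intact mice, where Fos was at log2 1.70. Of all measured genes, 5.48% and 5.53% were higher in epithelial-like cells of Trp53-deleted and Trp53-intact mice, and 8.71% and 6.99% in fibroblast-like cells. The part of the 20 genes in the levels of Per1 and Sgk1 was not tested.

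Likeness to each member was described over 52 sums of a class in a library with at least 50 cells, among 12050 genes, as Pearson's r of log2(CPM + 5). The sums share libraries, depth and the class names, so these values carry no p. Zbtb16 was the gene most like Fkbp5 (r = 0.79), ahead of Scoc (0.69), Tmem65, Serpinb6a and Ctdsp2. Nearest to Zbtb16 were Acadsb (0.81), Synm, Tgfbr3, Fkbp5 and Klf9 (0.78), of which Klf9 was on the list of glucocorticoid-response genes. For Tsc22d3 the nearest were Cep120 (0.77), Ap1m1, Msn, Etnk1 and the receptor gene Nr3c1 (0.75). Per1 was most like Coq10b (0.88), Junb (0.87), Nr4a1 (0.86), Ing3 and Ddx3y, of which Junb and Nr4a1 were on the dissociation list. Sgk1 was most like Ctbp2 (0.84), Rin2, Fam129b, Mapk3 and Sec14l1. Among the members themselves, Tsc22d3 and Per1 had r = 0.65, Zbtb16 and Sgk1 had r = 0.46, and Tsc22d3 and Sgk1 had r = -0.26.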

How the data were processed

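UMI counts, 1 row per gene and 1 column per barcode, were deposited by the authors without normalisation, on the mm10 build per the submitters' processing notes. Those notes list Cell Ranger 2.1.1, but the matrix carries version 3.1.0 per the file headers, and which is right was not settled. Per the labels' protocols, tissue was digested with collagenase and TrypLE, and libraries used version 3 of the 10x Chromium 3' kit. Alleles common to all groups, and some genes, are not reported here.

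A suffix table from the submitters assigned each of the 36326 barcodes to its library. Barcodes needed 500 UMIs, 200 genes and at most 20% mitochondrial UMIs, a limit that 8.39% to 25.7% per library exceeded. Scrublet's own threshold marked at most 1 barcode per library, so the top-scoring barcodes were dropped as doublets, up to a share of 0.008 for every 1000 barcodes in the library (305 to 793 cells per library). In scanpy 1.11.5, log values of counts scaled to 10000 gave 2000 variable genes, 40 principal components, 20 neighbours and, at Leiden resolution 1, 40 clusters. Markers named 19 classes and 10 clusters stayed unnamed. The scoring thresholds, and the list of outside cell types that kept clusters unnamed, were chosen once the clusters were known. Clusters filled mainly by 1 library may reflect the library.

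Class sums were turned into CPM, and log2 ratios added 5 CPM. The 95% intervals (Poisson for levels, conditional binomial for ratios, Clopper-Pearson for shares) cover counting error only, and a share of 0 is given with the share that 3 cells would have. Without replicates no test was run. From each list, up to 3 genes with the highest and 3 with the lowest log2 ratio past 1.5-fold could be named, of which only some are printed. Members, lists and settings were chosen with earlier results of these data known. The call rule and intervals were tried only on simulated Poisson counts, the kind of counting error that the intervals assume. That trial holds no variation between cells, animals or libraries, so it says nothing of these. Python 3.11.15, scipy 1.17.1, numpy 2.4.6, pandas 2.3.3 and matplotlib 3.10.9 were used.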

Additional observations from a re-analysis of the deposited data

Results flagged for a closer look

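Tsc22d3 in macrophage-like cells ran in opposite directions with ADT in the 2 genotypes, with a log2 ratio of 2.12 in Trp53-deleted mice and -0.82 in Trp53-intact mice. Zbtb16 in endothelial-like cells did the same, with a log2 ratio of -0.86 in Trp53-deleted mice and 0.98 in Trp53-intact mice. Each direction rests on 1 library with ADT and 1 without, and the difference between genotypes was not tested.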

How the results depend on the processing

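No paired analysis was possible because each group is 1 library, and for the same reason no replicate could be left out. Of the main counts and share differences under other settings, 166 values kept their direction and size class and 18 moved; of the single-gene ratios, 328 kept theirs, 41 moved and 1 reversed. The counts of members lower with ADT in epithelial-like cells were 2 or 3 in each genotype under each setting run, with 2 as reported in Trp53-deleted mice and 3 in Trp53-intact mice. In Trp53-deleted mice the count was 3 with the neutrophil-like level taken off or the unnamed epithelial clusters counted in, and in Trp53-intact mice it was 2 under those settings, with a pseudocount of 10 CPM, with doublets kept and in luminal progenitor-like cells alone, where Tsc22d3 was at log2 ratios of -0.58 to 0.00. In fibroblast-like cells of Trp53-intact mice (1 higher, 0 lower as reported), 2 were higher with a pseudocount of 1, with a mitochondrial limit of 10% or with a mean of per-cell CPM, 1 was lower with that mean, and 2 were lower with the neutrophil-like level taken off. With that mean, 1 member was higher in the immune mean of Trp53-intact mice, against 0 as reported. Some settings were chosen after seeing the data. Counting the Crabp1 and Postn cluster as fibroblast-like left 0 members of Trp53-deleted mice called higher, against 1 as reported, and turned the log2 ratio of Tsc22d3 to -0.83 from the reported 0.82. Fibroblast-like clusters shared by both libraries were clusters 15 and 20 in Trp53-deleted mice, taken with equal weight, and cluster 15 alone in Trp53-intact mice. They gave 2 higher in Trp53-deleted mice, and 2 higher and 2 lower in Trp53-intact mice. No share of all measured genes is given for this setting. Thinning to 2000 UMIs put the differences in share at -13.3 percentage points for Fkbp5 and -8.49 for Zbtb16 in Trp53-deleted mice, and -8.26 and -3.56 in Trp53-intact mice; without thinning they were -46.5, -40.0, -15.0 and -12.8. The cause of these changes was not tested. Zbtb16 in epithelial-like cells with ADT rests on 2 and 11 UMIs, which limits how far its ratio can be read.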

Other observations

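A cluster led by Folr2 and Cd163, genes of resident macrophages, was left unnamed and held 55 cells in Trp53-deleted ADT, 380 in Trp53-deleted, 57 in Trp53-intact ADT and 475 in Trp53-intact. Fkbp5 in it was at 118, 29.5, 185 and 92.4 CPM in that order, so it was higher in each ADT library than in the library of the same genotype without ADT. Tsc22d3 was at 548, 101, 291 and 281 CPM, and Per1 at 70.6, 34.0, 109 and 57.0 CPM.

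A cluster led by Crabp1 and Postn, which came from Trp53-deleted ADT except for 1 of its 650 cells, carried Fkbp5 at 65.3 CPM, Tsc22d3 at 39.2 CPM, Zbtb16 at 0.498 CPM, Per1 at 19.2 CPM and Sgk1 at 142 CPM. Endothelial-like cells carried Fkbp5 at 70.5 CPM in Trp53-deleted ADT, 58.7 in Trp53-deleted, 133 in Trp53-intact ADT and 100 in Trp53-intact, within 1.5-fold with ADT in both genotypes.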
